A study of Mus musculus with 4 samples.

Results

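Insulin signalling genes were compared between the lungs of mice that had both lost p16 and been exposed to cigarette smoke (CS) and the lungs of untreated mice with p16 intact, so that the contrast holds the combined effect of genotype and exposure. The members were chosen by group alone. They were 4 p16-/- CS lungs and 4 p16+/+ room air (RA) lungs out of the 15 lungs of the series, with all 84 target genes of an insulin signalling qPCR array measured in each lung. The p16-/- CS mice were p16Luc animals with the alleles Cdkn2a tm3.1Nesh and Tyr c-2J on a B6.Cg background, a germline knock-in of firefly luciferase that abolishes p16, and they breathed CS for 16 weeks starting at 8 weeks of age. The p16+/+ RA mice were wild-type B6(Cg)-Tyrc-2J/J animals in RA, 24 weeks old when their lungs were taken. Both strains carry the Tyr c-2J albino allele, all mice were female, and RNA came from whole lung lobes. The other 7 lungs, 3 of p16-/- RA mice and 4 of p16+/+ CS mice, entered the same statistical model and serve below to set the combined change beside its parts. Neither Cdkn2a nor a lung cell marker was among the target genes, so the genotype and the tissue could not be checked from these data.

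p16 holds cyclin D-dependent kinases inactive and thereby keeps a cell from dividing, and its accumulation is a common sign of senescence. Insulin and the insulin-like growth factors bind receptor tyrosine kinases that phosphorylate substrate proteins such as Irs1 and Irs2. These recruit phosphoinositide 3-kinase, which activates Akt through Pdpk1 and feeds metabolism, protein synthesis and survival, and they recruit the Grb2-Sos1 pair, which activates Ras and the MAP kinases. In the lung these routes support the growth and survival of alveolar epithelial cells.

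Expression is given as -ΔCT, the mean threshold cycle (CT) of 5 reference genes minus the CT of the gene. It is a log2 value on which 1 unit is 1 doubling, and it cannot be compared between genes. A log2 change is the mean of the p16-/- CS lungs minus the mean of the p16+/+ RA lungs, and a gene was called when its limma p-value, adjusted over the 84 genes by Benjamini-Hochberg, was under 0.05. Of the 84 genes, 33 were higher in p16-/- CS lungs than in p16+/+ RA lungs (39.3% of those tested) and 2 were lower (2.38%). Over the 84 genes the median log2 change was 1.32, a 2.49-fold difference. For 28 genes every p16-/- CS lung lay above every p16+/+ RA lung (33.3%), and for 1 gene, Prkcz, every p16-/- CS lung lay below (1.19%). A gene without overlap has an exact two-sided permutation p of 0.0286, the smallest that 4 against 4 lungs can give. GEO describes each group as 1 record and its labels do not list animals, so the p-values measure the spread between these lungs. In bulk lung RNA, more cells of a type that expresses a gene and more RNA per cell cannot be told apart.

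The direction of these counts depended on the reference genes. Gapdh CT was 21.01, 21.18, 19.75 and 23.53 in the p16-/- CS lungs and 26.16, 26.13, 24.73 and 25.19 in the p16+/+ RA lungs, so the groups did not overlap and Gapdh RNA came up 4.19 cycles earlier in p16-/- CS lungs (21.4 ± 1.58 against 25.6 ± 0.71, SD, n = 4 each; exact permutation p = 0.0286, adjusted over the 10 reference gene tests 0.0952). Actb, B2m, Gusb and Hsp90ab1 differed by -1.13, -0.20, -0.13 and 0.69 cycles between p16-/- CS and p16+/+ RA lungs, and for each of them the lungs of the groups overlapped (adjusted exact permutation p between 0.40 and 0.886). No CT of Gusb or Hsp90ab1 was at hand for p16+/+ RA lung 1, so its reference mean was estimated from its other 3 reference genes. Without that lung 30 genes were called higher and 1 lower. Relative to the mean of the 5, Hsp90ab1 also separated the groups, by 1.78 cycles in the other direction from Gapdh (adjusted exact permutation p = 0.0952). With Gapdh left out of the reference, 43 genes were called higher and 0 lower, with a median change of 2.23. With Gapdh alone as the reference, 0 were called higher and 24 lower, with a median change of -1.95. With the median of the 84 genes as the reference, 14 were called higher and 16 lower. The same 14 genes were called higher under each of 8 references (all 5 genes, each of the 5 left out, Actb with B2m and Gapdh, and the median of the 84 genes). They include Npy, Prkci, Grb10, Acaca, Cebpb, Dok2, Ppp1ca, Frs2, Pklr, Pdpk1 and Nck1, and with Gapdh alone none of them was called. These references do not change the CT limit or the plate layout, and 10 of the 14 were still called with a CT limit of 30 and 5 of the 14 after plate column effects were removed, both described below.

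**Figure D1:**
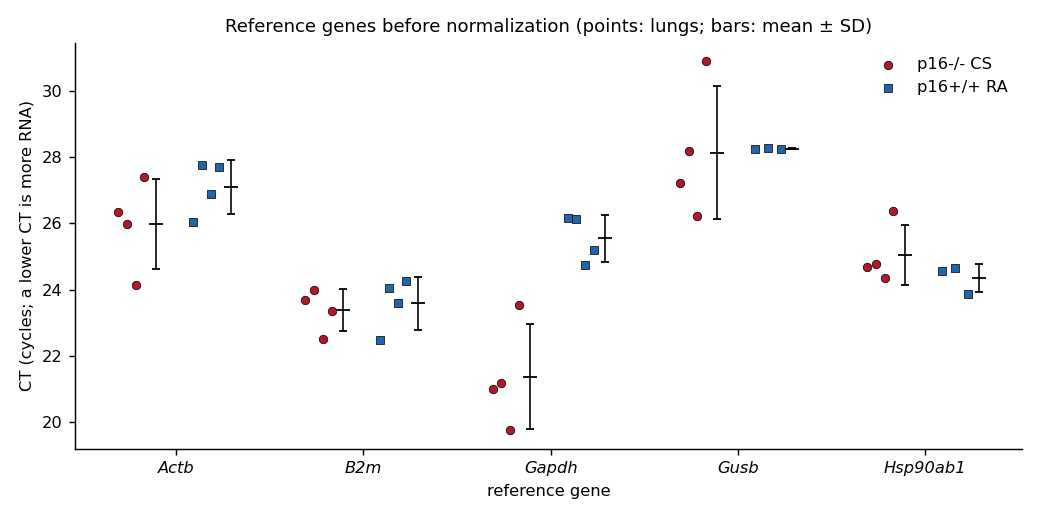
CT in cycles (vertical axis, a lower CT is more RNA) of the 5 reference genes in the 4 p16-/- CS lungs (circles) and the p16+/+ RA lungs (squares, 4 for Actb, B2m and Gapdh and 3 for Gusb and Hsp90ab1), with the mean ± SD beside each group. Gapdh is the gene whose groups do not overlap, with 19.75 to 23.53 cycles in p16-/- CS lungs and 24.73 to 26.16 cycles in p16+/+ RA lungs.

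The position on the array also moved with the result. The target genes fill 12 plate columns of 7 wells. The calls in columns 1 to 8 were 32 higher and 1 lower of 56 genes, with a median log2 change of 2.37. Those in columns 9 to 12 were 1 higher and 1 lower of 28 genes, with a median of 0.30. In these columns Braf, Pik3r1, Cap1, Ucp1 and Tg had CTs of 35.21 to 37.41 in p16-/- CS lung 1, all set to 35. Their CTs in the other p16-/- CS lungs were 26.38 to 32.77. The column medians without lung 1 were not computed, so its part in the contrast between columns was not tested. Without lung 1, 35 of the 84 genes were called higher and 1 lower, with a median change of 1.93. When each lung was centred on the median of each plate column, 7 genes were called higher and 11 lower, and 6 of those 7 were among the 33. The genes stand in alphabetical order along the rows of the plate, and the roles described below are not spread evenly over the columns. Columns 7 to 12 held 5 of the 33 genes called higher and all 6 phosphatases and Cbl complex genes. Late amplification differed as well. A p16-/- CS lung had between 2 and 21 of the 84 genes past 30 cycles, against 34 to 51 in a p16+/+ RA lung, and 17 genes were past 30 cycles in every p16+/+ RA lung and in no p16-/- CS lung. With every CT past 30 cycles set to 30 (the CT limit of 30 below, in place of 35), 21 genes were called higher, all of them among the 33, and 0 lower. The calls of Npy, Igf2, Cebpb, Ppp1ca, Pdpk1, Pparg, Prkcz and Retn were among those lost, while Prkci, Acaca, Grb10, Pklr, Frs2, Nck1 and Dok2 were called with changes between 2.20 (Dok2) and 3.05 (Prkci). For Npy, Igf2, Cebpb, Ppp1ca, Pdpk1, Pparg, Igfbp1 and Cfd the limit replaced every CT of the p16+/+ RA lungs and none of the p16-/- CS lungs. It can only shrink their changes, so a lost call there cannot decide whether these genes differ. No Retn CT of either group was past 30 cycles, and its change stayed at -1.85. Every Prkcz CT of both groups was past 30 cycles, so this limit cannot test Prkcz. Within the p16-/- CS group, lung 4 had the highest median of the 84 genes, a -ΔCT of -0.45 against -3.16 to -2.12 in the other lungs, and the latest reference mean, 26.32 cycles. Without lung 4, 31 genes were called higher and 2 lower, with a median change of 0.92.

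**Figure D2:**
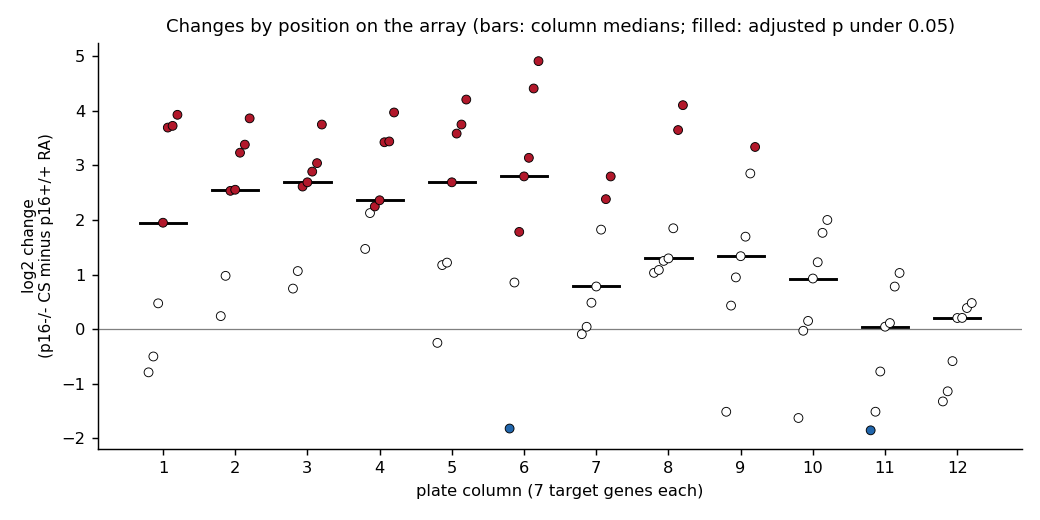
Log2 change of each of the 84 genes, p16-/- CS minus p16+/+ RA (vertical axis), by the plate column of its well (horizontal axis). Points are genes, filled red where called higher and blue where called lower, and bars are column medians, which lie between 0.78 and 2.80 in columns 1 to 8 and between 0.04 and 1.34 in columns 9 to 12. The heights follow the 5-gene reference, and with Gapdh alone the median of the 84 genes is -1.95.

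Of the 13 ligands, hormones and receptors, 6 were higher and 1 was lower in p16-/- CS lungs, with a median change of 1.06. Over all 84 genes, 39.3% were higher and 2.38% lower. With Gapdh alone as the reference, none of the 13 was called higher and 5 were called lower. Npy, neuropeptide Y of sympathetic nerves and brain, read -3.94, -3.45, -5.21 and -2.04 in the p16-/- CS lungs and -8.86, -8.57, -7.82 and -7.03 in the p16+/+ RA lungs. The lowest p16-/- CS lung was above the highest p16+/+ RA lung, and the log2 change was 4.41 ± 0.72 (SE), a 21.2-fold difference and 3.09 above the median of the 84 genes (adjusted p = 0.000317). Npy amplified late in p16+/+ RA lungs, with CTs of 34.03, 34.72, 33.45 and 32.89 cycles, against 28.27 to 28.61 in p16-/- CS lungs. With the CT limit of 30 the change was 0.64 (adjusted p = 0.541). That limit replaces every Npy CT of the p16+/+ RA lungs and none of the p16-/- CS lungs, so it can only shrink the change. The part of late amplification in its size was not tested. Igf2, a growth factor of fetal and adult tissue that acts through the Igf1 receptor, had -ΔCT values of -4.07, -2.72, -3.08 and -0.22 in p16-/- CS lungs against -6.22, -6.09, -4.83 and -5.88 in p16+/+ RA lungs. Its groups did not overlap either, and it was 9.39-fold higher (log2 change 3.23 ± 0.72 SE, adjusted p = 0.00196), although with Gapdh alone the change was -0.033 and with the CT limit of 30 it was 1.78 (adjusted p = 0.0795). For Igf2 too, that limit can only shrink the change.

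The receptor of these growth factors did not pass the test with the 5-gene reference. Igf1r, which binds Igf1 and Igf2, read -3.22, -1.77, -1.90 and 1.11 in p16-/- CS lungs and -1.89, -2.26, -0.89 and -2.62 in p16+/+ RA lungs. One p16-/- CS lung was the lowest of the 8 and another the highest, and the change of 0.47 had a 95% interval of -1.15 to 2.09 (adjusted p = 0.678). Without p16-/- CS lung 4 it was -0.38. Igf1r was called lower with Gapdh alone (-2.79, limma adjusted p = 0.036) and with the median of the 84 genes as the reference (-1.68, limma adjusted p = 0.0306). After plate column effects were removed it was also called lower (-2.21, limma adjusted p = 0.000334). Igfbp1, Ins1 and Prl, whose main sites are liver, pancreatic islet and pituitary, were named after their values were seen. They were 6.45, 4.75 and 5.21-fold higher in p16-/- CS lungs (adjusted p between 0.00495 and 0.0126). With Gapdh alone their changes were -0.58, -1.02 and -0.88, and after plate column effects were removed they were -0.05, -0.62 and 0.28, none of them called. Igfbp1 also lost its call with the CT limit of 30 (0.87, adjusted p = 0.368), which can only shrink its change. Retn, the adipocyte and macrophage hormone resistin, was the other gene called lower. It read -2.17, -2.39, -3.06 and -0.75 in p16-/- CS lungs and -0.61, 0.89, -0.40 and -0.84 in p16+/+ RA lungs. One p16-/- CS lung lay within the p16+/+ RA range, and the change was -1.85 ± 0.71 (SE, adjusted p = 0.0473). The call was lost when any of 11 of the 15 lungs was left out (adjusted p up to 0.156), and with the CT limit of 30 (adjusted p = 0.0614). No Retn CT of the groups compared was past 30 cycles. That limit left its change at -1.85, so the lost call there does not reflect late Retn CTs.

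**Figure D3:**
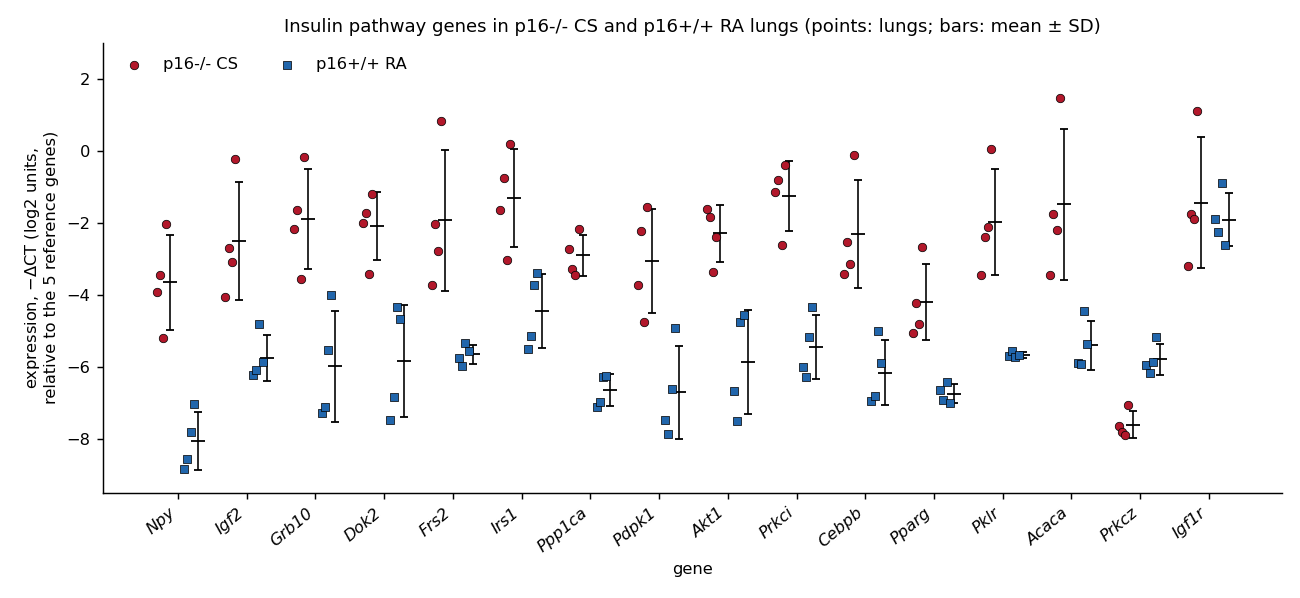
Expression as -ΔCT (vertical axis, log2 units relative to the 5 reference genes) of 16 genes in each p16-/- CS lung (circles) and each p16+/+ RA lung (squares), with the mean ± SD beside each group. From Npy to Acaca every circle lies above every square of the same gene, for Prkcz every circle lies below, and for Igf1r the groups overlap. With Gapdh alone as the reference, the mean changes of Igf2 (-0.033), Irs1 (-0.13) and Pparg (-0.71) fall below 0, and Igf1r (-2.79) and Prkcz (-5.09) are called lower.

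Among the 13 receptor substrates, docking proteins and adaptors, 5 were higher and 0 lower, against 39.3% and 2.38% over all 84 genes. All 13 changes were above 0 with the 5-gene reference (median 1.69). With Gapdh alone, none was called higher and 2 were called lower. Grb10, an adaptor that binds the insulin receptor and restrains it, read -2.17, -1.66, -3.56 and -0.18 in p16-/- CS lungs and -7.30, -7.12, -5.55 and -4.02 in p16+/+ RA lungs. The groups did not overlap and the log2 change was 4.10 ± 0.87 (SE), a 17.2-fold difference (adjusted p = 0.00166). It stayed at 2.67 after plate column effects were removed (adjusted p = 0.00363). Dok2, a docking protein of blood cells that dampens tyrosine kinase signals, had -ΔCT values of -2.0, -1.72, -3.43 and -1.21 in p16-/- CS lungs and -7.49, -6.84, -4.35 and -4.68 in p16+/+ RA lungs. Frs2, the docking protein of fibroblast growth factor receptors, read -3.74, -2.04, -2.80 and 0.82 in p16-/- CS lungs and -5.75, -5.99, -5.35 and -5.56 in p16+/+ RA lungs. Both were without overlap, and they were 13.4 and 13.2-fold higher in p16-/- CS lungs (adjusted p = 0.00166 for each). After plate column effects were removed their changes were 1.49 and 1.04 and neither passed (adjusted p = 0.0642 and 0.0937).

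Of the insulin receptor substrates, Irs1 passed the test with the 5-gene reference and Irs2 did not. Irs1 read -1.66, -0.76, -3.03 and 0.19 in p16-/- CS lungs and -5.50, -5.16, -3.74 and -3.40 in p16+/+ RA lungs. Every p16-/- CS lung was above every p16+/+ RA lung, and Irs1 was 8.80-fold higher (log2 change 3.14 ± 0.74 SE, adjusted p = 0.00274), although with Gapdh alone the change was -0.13 and after plate column effects were removed it was 0.02 (adjusted p = 0.948). Irs2 read -1.45, -0.66, -2.81 and 0.14 in p16-/- CS lungs, against -3.27, -1.99, -1.27 and -1.36 in p16+/+ RA lungs. Its groups overlapped and its change was 0.78, with a 95% interval of -0.83 to 2.40 (adjusted p = 0.456). Irs2 was called lower with Gapdh alone (-2.48, limma adjusted p = 0.036) and with the median of the 84 genes as the reference (-1.37, limma adjusted p = 0.0443). The difference between the changes of Irs1 and Irs2 was not tested. Shc1, the adaptor that links receptors to Grb2, was named after its values were seen. It had -5.66, -6.77, -6.38 and -5.84 in p16-/- CS lungs and -7.86, -7.69, -7.43 and -7.54 in p16+/+ RA lungs. Its lungs did not overlap, yet the change of 1.47 ± 0.60 (SE) missed the threshold (adjusted p = 0.0613). Only p16-/- CS lung 3 had a Shc1 CT under 30 cycles (29.77). The CT limit of 30 sets the other CTs of both groups to 30, and its value of -0.86 is largely the difference of the reference means (-0.92). That limit therefore cannot test Shc1. Without p16-/- RA lung 2, which enters only the spread, Shc1 passed (adjusted p = 0.0378).

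None of the 6 phosphatases and Cbl complex genes passed in either direction, against 39.3% higher over all 84 genes, and their median change was 0.48. They lay in plate columns 7 to 12, where 5 of 42 genes were called higher, so this role and the plate position cannot be told apart. Ptpn1, the phosphatase that inactivates the insulin receptor, had a change of 1.25 with a 95% interval of -0.30 to 2.80 (adjusted p = 0.203). Cap1, which encodes an actin-binding protein that associates with adenylyl cyclase, ranged from -10.41, the CT limit, to -0.06 in p16-/- CS lungs and from -6.52 to -5.58 in p16+/+ RA lungs, and its change of 0.78 turned to -0.98 without p16-/- CS lung 4.

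In the PI3K-Akt-mTOR branch, 5 of 13 genes were higher and 0 lower (median change 2.0), against 39.3% and 2.38% over all 84 genes. With Gapdh alone, 0 of the 13 were called higher and 3 were called lower. Akt1, the kinase at the centre of the branch, had -ΔCT values of -1.61, -1.83, -3.36 and -2.39 in the p16-/- CS lungs and -6.68, -7.51, -4.77 and -4.56 in the p16+/+ RA lungs. The groups did not overlap, and the p16+/+ RA lungs fell into a lower and a higher pair. Akt1 was 12-fold higher in p16-/- CS lungs (log2 change 3.58 ± 0.83 SE, 2.27 above the median of the 84 genes, adjusted p = 0.00253). Relative to the median of the 84 genes as the reference the change was 1.43 (adjusted p = 0.119), and after plate column effects were removed it was 1.32 (adjusted p = 0.109). Pdpk1, which phosphorylates Akt, read -3.73, -2.24, -4.76 and -1.56 in p16-/- CS lungs and -7.47, -7.86, -6.61 and -4.93 in p16+/+ RA lungs. Its lowest p16-/- CS lung was just above the highest p16+/+ RA lung, and the log2 change was 3.65 ± 0.81 (SE, adjusted p = 0.00196). It was 2.22 after plate column effects were removed (adjusted p = 0.0059) and 1.22 with the CT limit of 30 (adjusted p = 0.265), which can only shrink it.

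Ppp1ca, a catalytic subunit of protein phosphatase 1, separated the groups with the smallest spread of the called genes named in this branch. It read -2.75, -3.28, -3.45 and -2.17 in p16-/- CS lungs and -7.12, -6.97, -6.28 and -6.27 in p16+/+ RA lungs. The nearest lungs of the groups were at -3.45 and -6.27, and the log2 change was 3.75 ± 0.56 (SE, 13.4-fold, adjusted p = 0.000166). With the CT limit of 30, which can only shrink it, it was 1.39 (adjusted p = 0.145), and after plate column effects were removed 1.01 (adjusted p = 0.0534). Mtor and Akt2, also called and named after their values were seen, had log2 changes of 2.61 and 2.80 (adjusted p = 0.00195 and 0.0369). With Gapdh alone they stood at -0.65 and -0.47, and after plate column effects were removed at -0.13 and -0.32. Akt2 was called under 3 of the 8 references, and it lost its call with the CT limit of 30 (adjusted p = 0.0699) and without lung 1, 2 or 4 of p16-/- CS or lung 1 or 2 of p16+/+ RA mice (adjusted p = 0.0522, 0.0921, 0.104, 0.124 and 0.125).

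Start-site windows were searched for motifs of factors tied to these routes, since Akt acts on forkhead factors and p16 acts through RB on E2F. RefSeq (GRCm38.p6) windows of 250 bases before to 50 bases after a gene start were held for 65 of the 84 genes, in 94 windows. On either strand, the forkhead motif TGTTTAC was in 1 of the 94 windows, that of Akt1 (1.06%, against 3.65% of all 32851 windows). The E2F motif TTTCGCGC was in 2 (Bcl2l1 and Shc1, 2.13% against 0.323%) and the form TTTGGCGC in 0 (0.514% of all windows). The cyclic AMP response element TGACGTCA was in 2 (Braf and Prkcz, 2.13% against 1.79%) and the E-box CACGTG in 2 (Irs1 and Irs2, 2.13% against 7.15%). None of these motifs contains another, and a match is a run of letters, not a measured site. The windows of Akt1, the gene the study follows, and of Prkcz, the gene whose p16-/- CS lungs were all lower, are shown 5′ to 3′ on the gene's strand with the forkhead motif of Akt1 (chr12:112674835-112675134, minus strand) and the cyclic AMP response element of Prkcz (chr4:155345740-155346039, minus strand) in capitals. Akt1 has 2 windows and Prkcz 3, and the one with the match is shown.
Akt1: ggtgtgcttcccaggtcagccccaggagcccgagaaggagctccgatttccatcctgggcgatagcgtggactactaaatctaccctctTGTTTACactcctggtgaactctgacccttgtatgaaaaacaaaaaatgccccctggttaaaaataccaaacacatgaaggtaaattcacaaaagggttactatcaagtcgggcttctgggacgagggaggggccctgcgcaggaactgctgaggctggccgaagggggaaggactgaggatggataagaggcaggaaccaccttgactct
Prkcz: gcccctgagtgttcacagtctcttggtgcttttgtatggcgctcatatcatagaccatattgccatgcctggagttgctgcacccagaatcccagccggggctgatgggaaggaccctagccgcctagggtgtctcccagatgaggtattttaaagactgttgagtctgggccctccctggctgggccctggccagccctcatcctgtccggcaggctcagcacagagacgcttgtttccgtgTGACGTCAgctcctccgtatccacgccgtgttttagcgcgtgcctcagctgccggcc

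The Ras-MAPK branch had 2 of 10 genes higher and 0 lower (median change 1.10), against 39.3% and 2.38% over all 84 genes. With Gapdh alone it had 0 higher and 4 lower. Map2k1, the kinase that activates the MAP kinases, was one of the 2 called higher with the 5-gene reference. It had -4.17, -3.38, -3.02 and -0.51 in p16-/- CS lungs and -3.81, -5.23, -4.28 and -5.56 in p16+/+ RA lungs. The groups overlapped, the log2 change was 1.95 ± 0.71 (SE, adjusted p = 0.0369), and the call was lost without lung 4 of p16-/- CS or without lung 2 or 4 of p16+/+ RA mice (adjusted p = 0.0901, 0.103 and 0.0891). With Gapdh alone the change was -1.32, after plate column effects were removed -0.74, and with the CT limit of 30 it was 1.25 (adjusted p = 0.216).

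The atypical protein kinase C genes moved in opposite directions. Prkci, which encodes the iota isoform, read -1.16, -0.83, -2.63 and -0.39 in p16-/- CS lungs and -6.02, -6.29, -5.18 and -4.34 in p16+/+ RA lungs. Prkcz, which encodes the closely related zeta isoform, read -7.64, -7.82, -7.91 and -7.08 in p16-/- CS lungs and -5.96, -6.17, -5.87 and -5.18 in p16+/+ RA lungs. Neither gene had overlapping groups. Prkci was 18.4-fold higher (log2 change 4.20 ± 0.63 SE, adjusted p = 0.000166) and Prkcz 3.53-fold lower (log2 change -1.82 ± 0.52 SE, adjusted p = 0.00929) in p16-/- CS lungs. After plate column effects were removed the changes were 1.94 for Prkci and -4.93 for Prkcz (adjusted p = 0.00363 and 3.2e-05). With Gapdh alone as the reference Prkci stood at 0.94 (adjusted p = 0.319) and Prkcz at -5.09. Prkcz did not pass with Gapdh left out (-0.91, adjusted p = 0.216) or with the CT limit of 30 (-0.92, adjusted p = 0.368). Every Prkcz CT of both groups was past 30 cycles. That limit set them all to 30, so the -0.92 is the difference of the reference means and cannot test Prkcz.

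Of the 8 transcription factors, 4 were higher and 0 lower (median change 1.82), against 39.3% and 2.38% over all 84 genes. With Gapdh alone 0 were called higher and 2 lower. Cebpb, a factor of acute-phase and adipocyte genes, read -3.41, -2.54, -3.15 and -0.12 in p16-/- CS lungs and -6.95, -6.82, -5.00 and -5.90 in p16+/+ RA lungs. The groups did not overlap and Cebpb was 14.5-fold higher (log2 change 3.86 ± 0.72 SE, adjusted p = 0.000746). With the CT limit of 30, which can only shrink it, the change was 1.99 (adjusted p = 0.0586) and after plate column effects were removed 0.84 (adjusted p = 0.0515). Aebp1, which encodes an adipocyte enhancer-binding protein, had a log2 change of 3.44 ± 0.86 (SE, adjusted p = 0.00376) without overlap, and 0.57 after plate column effects were removed (adjusted p = 0.382). Pparg, the nuclear receptor of fatty acid storage, had -ΔCT values of -5.06, -4.24, -4.81 and -2.69 in p16-/- CS lungs and -6.65, -6.92, -6.42 and -7.02 in p16+/+ RA lungs. All p16-/- CS lungs were higher, and Pparg differed 5.87-fold (log2 change 2.55 ± 0.59 SE, 1.24 above the median of the 84 genes, adjusted p = 0.00253). The change turned to -0.71 with Gapdh alone and to -0.47 after plate column effects were removed, and with the CT limit of 30 it was 0.098 (adjusted p = 0.920). That limit replaces every Pparg CT of the p16+/+ RA lungs and none of the p16-/- CS lungs, so it can only shrink the change.

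Among 9 genes of glucose uptake and metabolism, 5 were higher and 0 lower (median change 1.82), beside 39.3% and 2.38% over all 84 genes. With Gapdh alone 0 were higher and 3 lower. Pklr, the liver and red cell pyruvate kinase, read -3.46, -2.40, -2.12 and 0.04 in p16-/- CS lungs and -5.72, -5.57, -5.73 and -5.69 in p16+/+ RA lungs. The p16-/- CS lungs were all higher than the nearly level p16+/+ RA lungs, and the log2 change was 3.69 ± 0.67 (SE, 12.9-fold, adjusted p = 0.000746). After plate column effects were removed it was 1.01 (adjusted p = 0.0878). Slc2a1, the widespread glucose transporter Glut1, was named after its values were seen, with a log2 change of 1.78 ± 0.61 (SE, adjusted p = 0.0273) and no overlap. It was -1.48 with Gapdh alone, -0.37 against the median of the 84 genes and -1.33 after plate column effects were removed, and it was called under 4 of the 8 references. The call was also lost with the CT limit of 30 (adjusted p = 0.0614) and without lung 1 or 2 of p16-/- CS or lung 1, 2 or 3 of p16+/+ RA mice (adjusted p = 0.0586, 0.0507, 0.0874, 0.0601 and 0.0624). Of the 5 genes of lipid metabolism and thermogenesis, 2 were higher and 0 lower, against 39.3% and 2.38% over all 84 genes. Acaca, the first enzyme of fatty acid synthesis, read -3.46, -1.76, -2.20 and 1.46 in p16-/- CS lungs and -5.89, -5.94, -4.45 and -5.38 in p16+/+ RA lungs. The groups did not overlap, and the log2 change was 3.93 ± 0.84 (SE, 15.2-fold, adjusted p = 0.00166). After plate column effects were removed it was 1.24 (adjusted p = 0.0585).

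The remaining 4 genes concern survival, repair and inflammation, of which 2 were higher and 0 lower, against 39.3% and 2.38% over all 84 genes. None of the 4 was called with Gapdh alone. Nos2, the inducible nitric oxide synthase, read -0.72, -0.70, -1.76 and 0.77 in p16-/- CS lungs and -2.69, -4.56, -3.05 and -2.88 in p16+/+ RA lungs. The groups did not overlap, and the log2 change was 2.69 ± 0.68 (SE, 6.45-fold, adjusted p = 0.00386). With Gapdh alone it was -0.58, and after plate column effects were removed 0.43 (adjusted p = 0.273).

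**Figure D4:**
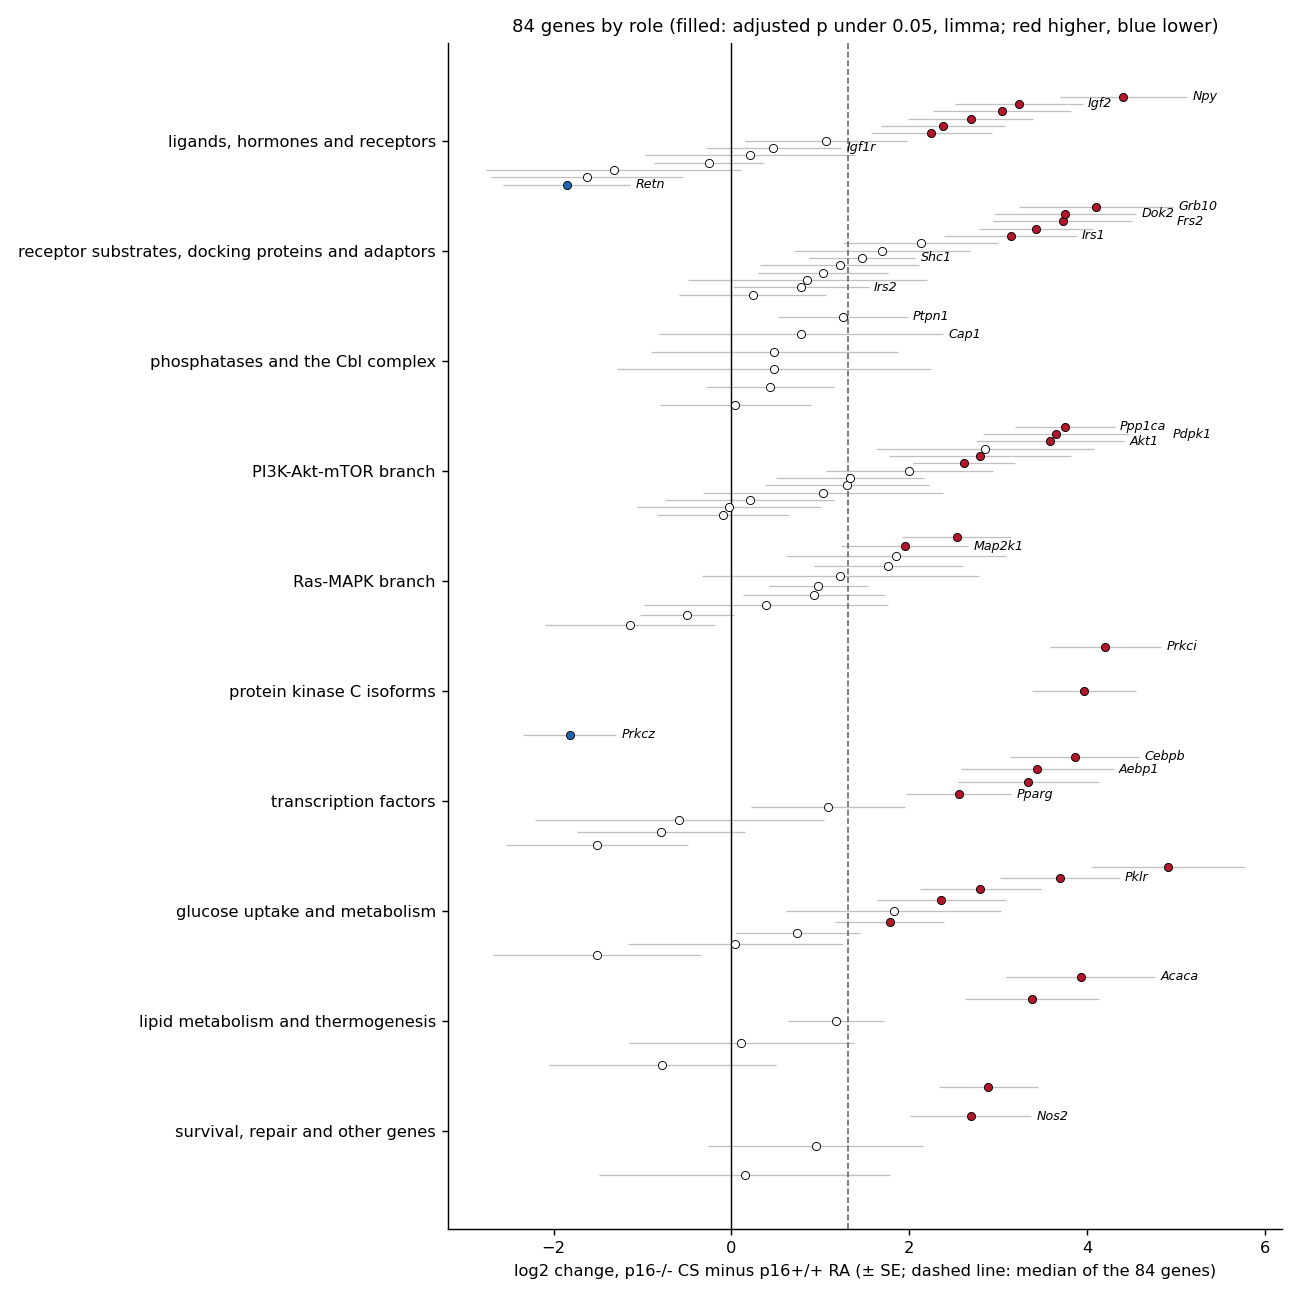
Log2 change of the 84 genes, p16-/- CS minus p16+/+ RA (horizontal axis, ± SE), grouped by role. Filled points passed the adjusted p of 0.05 in limma (33 red, higher; 2 blue, lower), and the dashed line is the median of the 84 genes at 1.32. The 6 phosphatases and Cbl complex genes hold no filled point. With Gapdh alone as the reference no gene was called higher and 24 were called lower.

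Adipocyte genes were read as a list of markers of another cell type. Of 6 adipocyte genes, Cfd and Pparg were higher, Retn was lower and Lep, Cebpa and Ucp1 did not pass (changes of 0.21, -0.79 and -0.78). With the CT limit of 30 none of the 6 was called, Cfd standing at 1.37 (adjusted p = 0.154), and with Gapdh alone Cfd stood at -0.22. The CT limit of 30 can only shrink the changes of Cfd and Pparg. The summed level of the 6, relative to the reference mean, was 0.379 to 3.01 in p16-/- CS lungs and 0.736 to 2.39 in those of p16+/+ RA mice. No marker was at the CT limit throughout a group (Ucp1 was there in p16-/- CS lung 1), and the part of adipocytes in the result was not tested. Of 14 genes expressed mainly outside the lung, 8 were called higher and 1 was called lower, against 39.3% and 2.38% over all 84 genes, with a median change of 2.30 and a summed level of 1.82 to 11.6 in p16-/- CS lungs against 1.61 to 3.49 in p16+/+ RA lungs. With Gapdh alone 0 of the 14 were called higher and 5 lower. After plate column effects were removed 2 were called higher and 2 lower, with a median change of 0.06.

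The combined change was set beside its parts. These comparisons share lungs, so their values stand side by side only. For Npy the change was 4.41 in p16-/- CS against p16+/+ RA lungs, 3.63 in p16-/- RA against p16+/+ RA lungs and 0.32 in p16+/+ CS against p16+/+ RA lungs. For Akt1 these values were 3.58, 2.99 and -0.18, for Irs1 3.14, 2.53 and -0.04, and for Pparg 2.55, 2.05 and 0.27. For Prkcz they were -1.82, -2.33 and -0.40. Of the 33 genes higher here, 24 were also called higher in p16-/- RA lungs, and both genes called lower here were called lower there. The other 9 (Akt2, Cfd, G6pc2, Igfbp1, Ins1, Klf10, Map2k1, Prl and Slc2a1) were not called in p16-/- RA lungs, where their changes were between 0.95 and 1.92, and Tg, Hras and Vegfa were called lower in p16-/- RA lungs but not here (changes here of -1.63, -1.14 and -1.32, adjusted p between 0.270 and 0.508). The Vegfa CT of p16+/+ RA lung 4 was blank and had been set to the CT limit. Without that lung Vegfa was called lower (-2.98, adjusted p = 0.0423). With blank CTs left missing and no CT limit it was not called (-2.98, limma adjusted p = 0.137). Without p16+/+ RA lung 1 G6pc2 was not called (1.94, adjusted p = 0.0553).

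The difference between the combined change and that of p16 loss alone is the change between p16-/- CS and p16-/- RA lungs. It was above 0 for 81 of the 84 genes with a median of 0.68, and limma called 0 genes (1 at an unadjusted p under 0.05, smallest adjusted p = 0.793). That gene was Shc1, with -8.20, -6.17 and -8.35 in p16-/- RA lungs and a change of 1.41 ± 0.65 (SE). The median -ΔCT of the 84 genes was -0.45 in p16-/- CS lung 4. The other p16-/- CS lungs had medians of -3.16 to -2.12 and the p16-/- RA lungs -3.10 to -2.80. How many changes stay above 0 without lung 4 was not counted, so the part of that lung in the shift was not tested. The difference from CS alone is the change between p16-/- CS and p16+/+ CS lungs, where 32 genes were higher and 1 was lower. Whether CS acted differently in the genotypes was asked with the interaction, which called 0 genes (0 at an unadjusted p under 0.05).

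**Figure D5:**
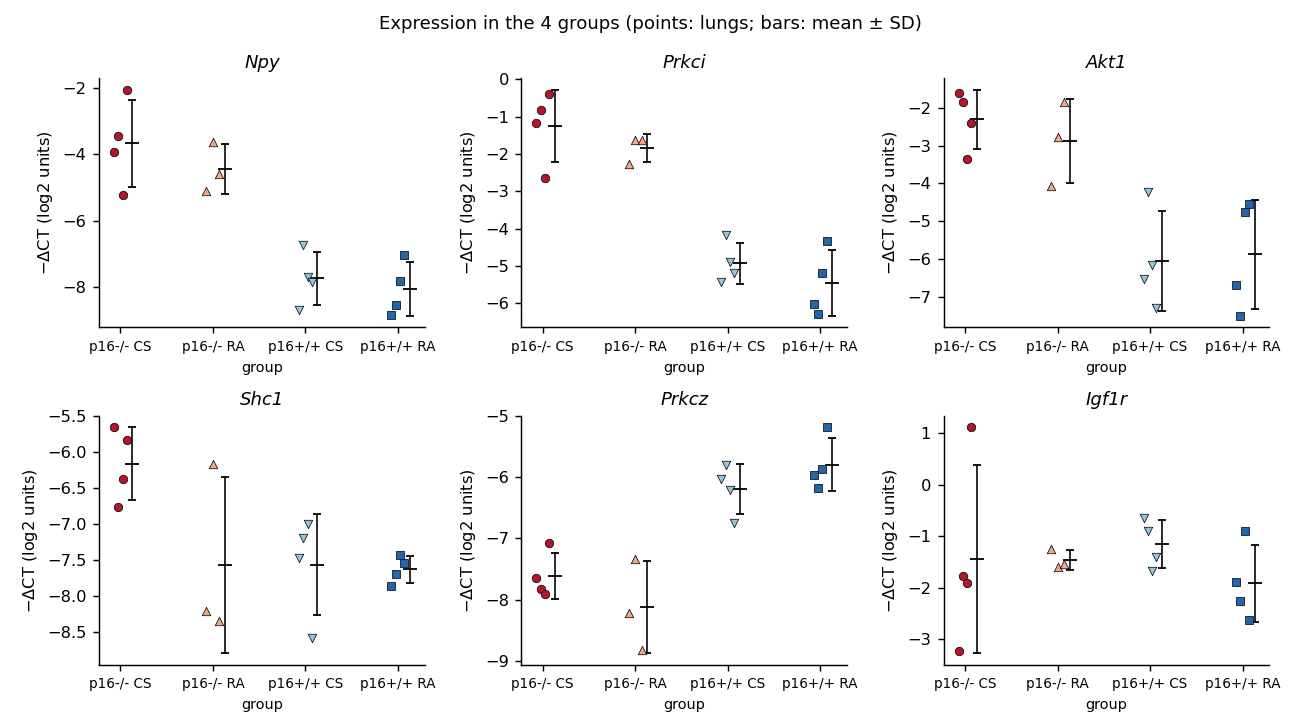
Expression as -ΔCT (vertical axes, log2 units relative to the 5 reference genes) of 6 genes in the 4 groups, with p16-/- CS on the left and p16+/+ RA on the right, points for lungs and bars for mean ± SD (n = 4, and 3 for p16-/- RA). For Npy, Prkci and Akt1 the p16-/- groups lie above the p16+/+ groups in either exposure, for Prkcz they lie below, and Igf1r overlaps throughout. The Shc1 mean is highest in p16-/- CS lungs, but these lungs overlap those of p16-/- RA mice.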

How the data were processed

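RNA of whole lung lobes was measured by SYBR Green qPCR on an insulin signalling array with 84 target genes and 5 reference genes. The authors deposited threshold cycles (CT), which are log2 values that fall by 1 cycle for each doubling of RNA, as 1 column per lung without normalization; the qPCR software was Bio-Rad CFX Manager, per the methods, and the study's reporting summary names an exclusion of data beyond 2 SD from the mean. Whether it was applied to wells of this array was not given in the sources used here. A second deposited table, with the study's own fold changes, was not used. Each group also had a column that equalled the mean of its lungs (84 of 84 genes within 0.001 cycles), and these 4 columns were left out. The rows of Gusb and Hsp90ab1 were 1 cell short and stood 1 column to the left, and they were moved so that every group mean matched. This left p16+/+ RA lung 1 without both genes, and its reference mean (25.18 cycles) was estimated from Actb, B2m and Gapdh plus the average offset in the other 3 lungs of its group.

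CTs past 35 cycles or blank were set to 35 (9 values in the 8 lungs). -ΔCT was the mean CT of the 5 reference genes minus the CT of the gene. All 15 lungs of 4 groups were fitted in limma (version 3.58.1, R 4.3.3; 11 residual degrees of freedom, moderated) with Benjamini-Hochberg adjustment over the 84 genes at 0.05, and single values were tested by two-sided exact permutation in Python 3.11.15 (numpy 2.4.6, pandas 2.3.3, scipy 1.17.1, matplotlib 3.10.9). Symbols of all 84 genes were in the RefSeq table. The interaction of genotype and exposure and a fit with the lung number as a block were added after the data were seen. The limma step was tested on simulated data. The number of lungs sets the precision, and 1 well per gene and lung gives no technical error. The members and gene lists were chosen with earlier results of these data known. Genes named were up to 10 higher and 10 lower with the largest changes among called genes without overlap, the 2 largest changes of each role list, Akt1, Pparg, Igf1r, Igf2, Irs1, Irs2, the reference genes and 6 adipocyte markers, and others are said to be named after their values were seen. Some genes of the array are not reported here by name but stayed in every fit and count. Alternatives covered the CT limit, the reference genes, the fit, the test, plate columns, the group-mean columns, the row alignment and each lung left out.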

Additional observations from a re-analysis of the deposited data

Results flagged for a closer look

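3 values stood far from the other lungs of their group by Dixon's test, of 88 groups of 4 lungs tested, and chance flags about 1 in 20 such groups. Prl, the pituitary hormone prolactin, had a -ΔCT of -2.64 in p16+/+ RA lung 4, against -4.71 to -4.38 in the other p16+/+ RA lungs. Without that lung its change was 2.85 (limma adjusted p = 0.00452). Vegfa, the endothelial growth factor, had no CT in p16+/+ RA lung 4. The blank was set to the CT limit, which gave a -ΔCT of -9.14, against -2.69 to -2.22 in the others. The -9.14 is therefore a filled-in value and not a reading. The change of Vegfa was -1.32 with that lung and did not pass, and -2.98 without it (limma adjusted p = 0.0423). With blank CTs left missing and no CT limit it was also -2.98, but did not pass (limma adjusted p = 0.137). Cfd, the adipocyte protease adipsin, read -8.58 in p16+/+ RA lung 2, against -5.14 to -5.05 in the others. Without that lung its change was 2.17 (limma adjusted p = 0.0132), against 3.04 with it.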

How the results depend on the processing

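The counts depended most on the reference and on the plate position. The numbers of genes higher, lower and without overlap were 33, 2 and 29. With a CT limit of 30, 21 were higher and 0 lower, the difference between p16-/- CS and p16+/+ CS lungs fell to 21 genes, and Shc1 (-0.86) and Ucp1 (0.014) changed sign. For Shc1 that limit replaces nearly every CT of the groups compared, so its sign there says little about the gene. With Gapdh left out, 0 were lower and Cebpa (0.12) and Ucp1 (0.13) were above 0. Lep fell below 0 with B2m (-0.024), Gusb (-0.036) or Hsp90ab1 (-0.24) left out. With Gapdh alone, 0 were higher, 24 lower and 11 without overlap, the median change was -1.95, 20 genes differed between p16-/- CS and p16+/+ CS lungs, and the changes of Igf2 (-0.033), Ptpn1 (-2.01), Cap1 (-2.48), Map2k1 (-1.32), Nos2 (-0.58), Pparg (-0.71), Igf1r (-2.79), Irs1 (-0.13), Irs2 (-2.48), Shc1 (-1.80), Igfbp1 (-0.58), Ins1 (-1.02), Prl (-0.88), Mtor (-0.65), Akt2 (-0.47), Slc2a1 (-1.48), G6pc2 (-0.90), Cfd (-0.22) and Lep (-3.06) were below 0. With Actb, B2m and Gapdh as the reference, Cap1 (-0.14), Igf1r (-0.45), Irs2 (-0.14) and Lep (-0.71) were below 0. With the median of the 84 genes as the reference, 14 were higher and 16 lower, the median change was -0.84, and Ptpn1 (-0.90), Cap1 (-1.37), Map2k1 (-0.20), Igf1r (-1.68), Irs2 (-1.37), Shc1 (-0.68), Slc2a1 (-0.37) and Lep (-1.95) were below 0. With plate column effects removed, 7 were higher and 11 lower, the median was -0.091, and Ptpn1 (-0.18), Map2k1 (-0.74), Pparg (-0.47), Igf1r (-2.21), Irs2 (-1.32), Shc1 (-1.40), Igfbp1 (-0.052), Ins1 (-0.62), Mtor (-0.13), Akt2 (-0.32), Slc2a1 (-1.33) and G6pc2 (-0.51) were below 0, with Ucp1 (0.16) above it. Without normalization, 0 were lower, 44 did not overlap, and Cebpa (0.13) and Ucp1 (0.15) were above 0.

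With only the 8 lungs in the fit, 28 were higher and 0 lower. With Gusb and Hsp90ab1 as deposited and with the methods' test for 2 groups, 1 was lower. With the exact permutation test 0 were higher and 0 lower after adjustment (smallest adjusted p = 0.0828), and 28 and 1 before it. The causes were not tested beyond these settings. No gene can have an exact permutation p under 0.0286 with 4 against 4 lungs, and 29 genes stood at that value. Whether this test passes after adjustment therefore depends on how many genes reach that value. Leaving out 1 lung at a time gave 30 to 35 genes higher, 1 to 3 lower and 29 to 36 without overlap, a median of 0.92 to 1.93, 28 to 38 genes between p16-/- CS and p16+/+ CS lungs, and 0 to 1 between p16-/- CS and p16-/- RA lungs (Ucp1, 4.07, adjusted p = 0.0385, without p16-/- CS lung 1). Cap1 ranged from -0.98 to 2.47, Igf1r from -0.38 to 1.06, Lep from -1.06 to 1.24 and Ucp1 from -1.73 to 0.85. Of 600 such checks of single genes, 567 kept direction and side of the threshold. The column headers number the lungs alike in each group, with the unnumbered header taken as 1, but no label ties lungs of one number together. Over the 84 genes, the deviations of p16-/- CS and p16+/+ RA lungs of the same number from their group means correlated between -0.27 and 0.02, and 0 of 4 pairs correlated best with their own number. With that number as a replicate block, an alternative chosen after seeing the data, 33 genes were higher, 32 of them shared, and 1 lower, with Map2k1 (adjusted p = 0.0595) and Retn (adjusted p = 0.0755) not called. A CT past 30 cycles rests on little template, and 1 well cannot show its error.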
